A study of Mus musculus with 8 samples.

Results

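The comparison described here sets p75NTR-positive mouse liver cells of embryonic stage E13.5 against those of stage E11.5, 1 microarray a stage and 2 of the 8 arrays of the series. Both arrays held RNA of fetal liver cells that were freed with collagenase and taken by flow cytometry as p75NTR-positive, CD45-negative and Ter119-negative, and the labels give no strain, genotype or treatment for either stage. The sources used here do not say whether an array stands for 1 fetus or a pool of livers. Of 5 sex-linked genes measured, 3 were well above background on both arrays: Xist of female cells and the Y-linked Ddx3y and Eif2s3y. Each array thus held RNA of both sexes, and so of more than 1 animal. The other arrays held the same kind of sorted liver cell at E14.5, at E17.5 and in newborn mice (P1), adult hepatic stellate cells (adult HSC), embryonic fibroblasts (MEF) and mesenchymal stromal cells (MSC). Of 20130 genes with a named probe on both arrays, 14283 were well above background on the brighter of these arrays, by the scanner software's call, and were compared. With 1 array a stage no difference below has a replicate check, and none has a p-value.

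The receptor p75NTR, encoded by Ngfr, binds neurotrophins and marks hepatic stellate cells, the pericytes that store vitamin A in the wall of the liver sinusoid. In the mouse these cells descend largely from the mesothelium and the septum transversum, the mesenchyme that lies between the embryonic heart and the liver bud. Hepatoblasts, the precursors of hepatocytes and bile duct cells, first invade that mesenchyme before E11.5, and blood formation moves into the liver over these days. Neural crest cells also carry p75NTR, so the antibody does not by itself separate them from liver mesenchyme.

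A level here is the log2 signal of a gene's probe relative to the 75th percentile of its array, and a difference is the E13.5 level minus the E11.5 level. Levels of different probes cannot be set against each other. At least 4-fold higher at E13.5 were 461 genes (3.23% of those compared), and at least 4-fold lower were 339 (2.37%). At least 2-fold higher were 1127 genes (7.89%), and at least 2-fold lower were 1016 (7.11%). The list counts below are to be read beside these shares. The median difference over all genes compared was -0.01, and 85.0% lay within 2-fold. Where a gene was dim on one array, that side counts at its own dim level in these numbers. With each dim side raised to the lowest level well above background on its array, 306 genes were at least 4-fold higher and 237 at least 4-fold lower. In place of 461 higher and 339 lower, normexp background correction gave 96 and 49, and loess on the mean level gave 564 and 270. Genes dim on one array have a fold only as a bound, written "at least". This bound is a convention and not a strict limit, since some probes above that lowest level were not called well above background.

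For probes well above background, the precision within an array was finer than these thresholds. The median SD among repeated spots of a probe, all of them well above background, was 0.0676 on the E13.5 array (279 probes) and 0.0855 on the E11.5 array (263 probes), on the log2 scale. These SDs do not cover dim probes. For 3395 genes with several probes above background on both arrays, the median SD of the difference between probes was 0.187, and 1 gene in 10 exceeded 0.603. The 75th percentile of the signal was 370 at E13.5 and 243 at E11.5, and 62.0% of spots at E13.5 and 59.3% at E11.5 were well above background, with 0 saturated. The 8 of 10 spike-in transcripts above background lay between -1.70 and -0.83 in their level difference, all lower at E13.5. Their range of 0.87 between these arrays is close to the 2-fold threshold, which is 1 on this scale. The scanner software's spike-in slope was 0.928 at E13.5 and 0.849 at E11.5, where it was marked as out of range. Dim genes made up most of the large differences: 21.8% of genes with a mean level of at most -4 were at least 4-fold apart, against 0.455% of those above 4. The part of labelling and array quality in the differences was not tested.

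**Figure D1:**
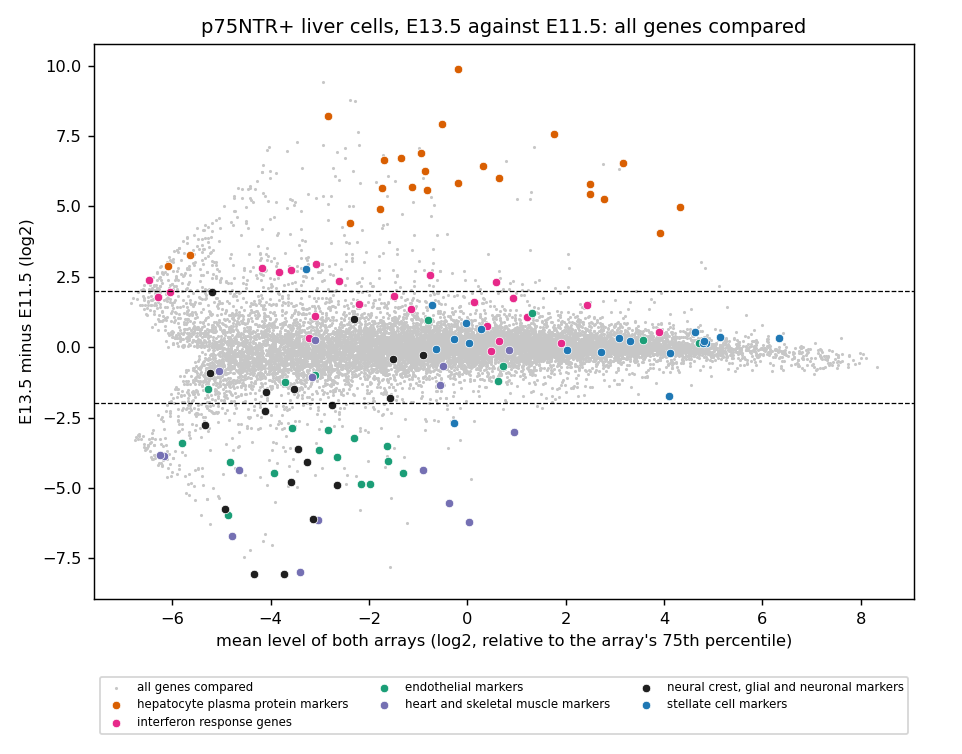
Each point is a gene, with its mean level on both arrays on the x axis (log2, with the array's 75th percentile at 0) and its difference E13.5 minus E11.5 on the y axis (log2). Dashed lines mark 4-fold; the 24 plasma protein genes compared all lie above the upper line, while most of the heart and muscle, endothelial and neural crest genes lie below 0 and most stellate cell genes near it.

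Transcripts of hepatocyte plasma proteins stood furthest apart between the stages. Of 24 such genes compared, all 24 were at least 4-fold higher at E13.5 (22 with dim levels at their bound), with a median difference of 5.82 against -0.01 for all genes. Alb, albumin, had a level of 5.55 at E13.5 and -2.03 at E11.5, which is 190.3-fold higher. Ahsg, fetuin A, had 4.75 at E13.5 and -5.12 at E11.5, below background. That is at least 936-fold higher, with its own dim level as the bound. Kng1, kininogen, had 3.44 at E13.5 and -4.48 at E11.5, 243-fold higher, while the difference of its other probe was 6.85. Afp, alpha-fetoprotein, the main serum protein of the fetus, had 6.82 at E13.5 and 1.84 at E11.5, 31.6-fold higher. It was 1 of 20 genes of the list that were well above background at E11.5 too.

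Among the genes with the highest differences, and named for that, were F2, Serpinc1, Plg and Serpina1a, which belong to the plasma protein list, and other Serpina genes, which do not. F2, prothrombin, had 2.01 at E13.5 and -4.71 at E11.5, 105-fold higher. Serpinc1, antithrombin, had 2.49 at E13.5 and -4.39 at E11.5, 118-fold higher, and Plg, plasminogen, had 1.63 at E13.5 and -5.01 at E11.5, 99.8-fold higher. Serpina1a, alpha-1-antitrypsin, was 93.9-fold higher, with 6.45 at E13.5 and -0.11 at E11.5. The probes of Serpina1c, Serpina1d and Serpina1e were 81.05-fold, 97.9-fold and 91.4-fold higher, and since these gene copies are nearly alike in sequence their signals may not be separate. Serpina6, the corticosteroid carrier, was 136.7-fold higher, with 4.91 at E13.5 and -2.18 at E11.5.

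Gc and Fabp1 were among the brightest genes detected at E13.5 alone, and were named for that. Gc, the vitamin D carrier, was at least 173.8-fold higher, while the difference of its other probe was 6.07. Fabp1, the liver fatty acid binding protein, was at least 107.5-fold higher. Igfbp1, a secreted binding protein of insulin-like growth factors, was above background on both arrays. It had 2.55 at E13.5 and -4.52 at E11.5, 134.6-fold higher, while Igf2 itself had 3.33 at E13.5 and 3.28 at E11.5. The median over 25 genes of cholesterol and fatty acid synthesis was -0.10.

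The transcription factors of hepatoblasts were higher as well, while several genes of bile duct cells lay within 2-fold. Of 15 hepatoblast and biliary markers compared, 10 were at least 2-fold higher and 0 lower, with a median of 1.49. Hnf4a, the nuclear receptor that drives the hepatocyte programme, had 1.05 at E13.5 and -4.31 at E11.5, 41.0-fold higher. Foxa3 was at least 6.04-fold higher and Cebpa at least 7.97-fold, each below background at E11.5. Krt19 had -0.57 at E13.5 and -0.10 at E11.5, and Sox9, a factor of early bile duct cells, had -1.69 at E13.5 and -1.20 at E11.5. The summed signal of the 25 plasma protein genes measured, in units of the array's 75th percentile, was 531 at E13.5 and 12.2 at E11.5. In a bulk sample, more cells of a type and more RNA per cell cannot be told apart.

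The plasma protein transcripts stood even higher on the next array of the series. Alb had levels of -2.03 at E11.5, 5.55 at E13.5, 7.19 at E14.5, 4.18 at E17.5 and 2.77 at P1. Hnf4a had -4.31, 1.05, 3.05, -1.46 and -1.78 over the same stages, so both genes were highest at E14.5. In adult HSC, sorted by vitamin A, Alb had -0.95 and Hnf4a -6.17.

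**Figure D2:**
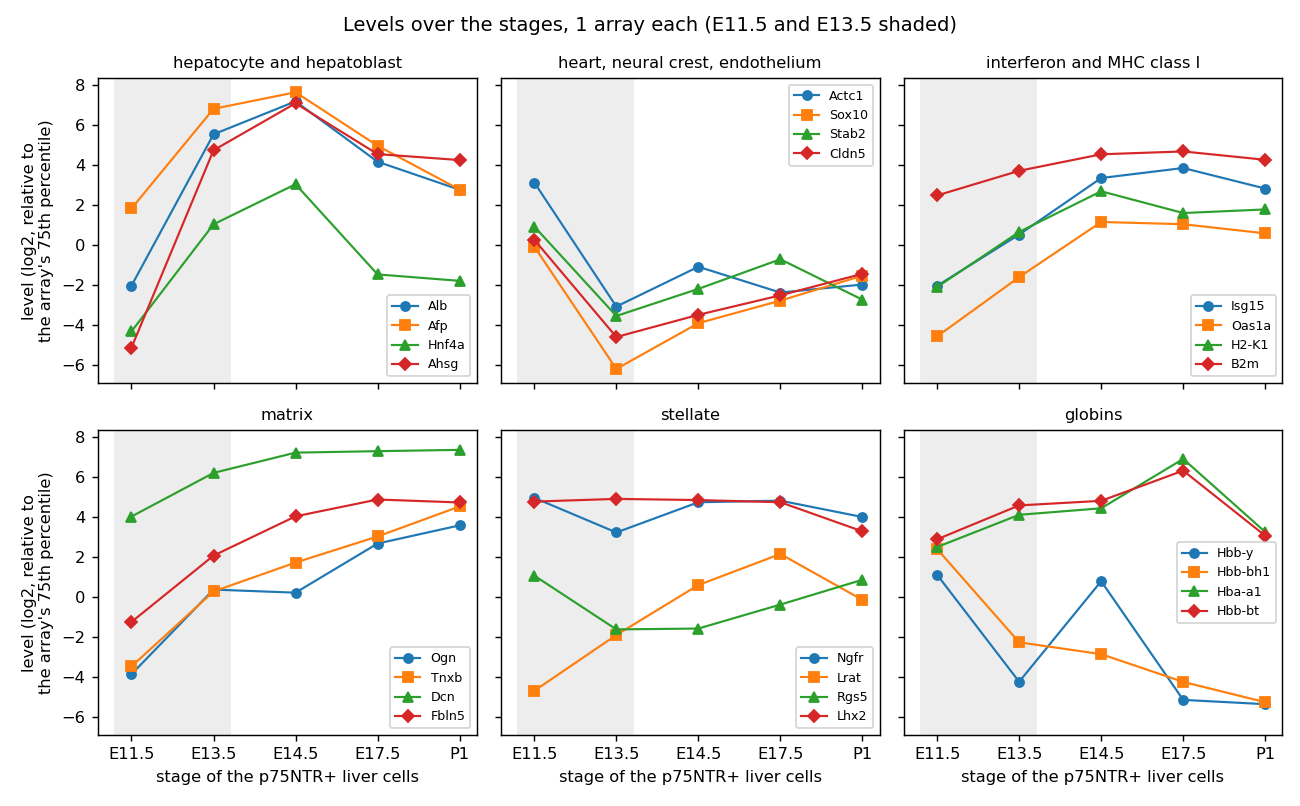
Levels (log2, relative to the array's 75th percentile) of 24 genes over 5 stages, E11.5 to P1, 1 array a stage, with the compared stages shaded. Alb, Afp, Hnf4a and Ahsg peak at E14.5, Actc1, Sox10, Stab2 and Cldn5 are highest at E11.5, and the levels of different genes are not comparable.

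Most genes of heart and skeletal muscle were lower at E13.5. Of 16 compared, 12 were at least 2-fold lower and 0 higher, with a median of -3.85 (-2.45 with dim levels at their bound). Over the 10 of them above background on both arrays the median was -1.20. Actc1, cardiac actin, had -3.07 at E13.5 and 3.14 at E11.5, 73.8-fold lower. Myl3, a ventricular myosin light chain, had -5.47 at E13.5 and 2.33 at E11.5, 223-fold lower. Nppa, the atrial natriuretic peptide, had -7.41 at E13.5, below background, and 0.59 at E11.5, at least 102.9-fold lower.

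Factors of both muscle lineages showed the same direction. Nkx2-5, a homeobox factor of the heart, had -6.11 at E13.5 and 0.04 at E11.5, at least 70.1-fold lower. Myog, myogenin of skeletal muscle, had -8.14 at E13.5 and -1.42 at E11.5, at least 25.5-fold lower. Some contractile genes lay within 2-fold: Tnni1 had 0.79 at E13.5 and 0.89 at E11.5, and Tnnt3 had -2.97 at E13.5 and -3.22 at E11.5. The list's summed signal was 4.02 at E13.5 and 29.3 at E11.5.

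Genes of neural crest, glia and neurons were lower in 14 of 19 and higher in 2, by at least 2-fold, with a median of -2.25. Ret, the receptor of glial-derived growth factor on enteric neural crest, had -8.37 at E13.5 and -0.33 at E11.5, at least 54.4-fold lower. Sox10, a factor of crest and glia, had -6.19 at E13.5 and -0.07 at E11.5, at least 65.1-fold lower, so both of these defining genes of the lineage were measured at E11.5 and were below background at E13.5. Dbh, dopamine beta-hydroxylase, was 29.7-fold lower and Tubb3, neuronal tubulin, had -5.31 at E13.5 and -1.22 at E11.5. The members higher at E13.5 were S100b, with -4.22 at E13.5 and -6.18 at E11.5, and Stmn2, with -1.80 at E13.5 and -2.82 at E11.5.

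The neurotrophin system itself differed little apart from the sorted receptor. Ngfr had 3.24 at E13.5 and 4.97 at E11.5, 3.32-fold lower, and 4.75 at E14.5. The other 14 genes compared among Trk receptors, neurotrophins and their partners lay within 2-fold, Ntrk3 with -0.15 at E13.5 and 0.10 at E11.5. Of 38 guidance genes, 7 (18.4%) were at least 2-fold lower and 1 (2.63%) higher, against 7.11% and 7.89% of all genes. Slit1, a secreted repellent of axons, had -5.66 at E13.5 and -1.26 at E11.5, 21.1-fold lower, and Ntn1, netrin 1, had -1.41 at E13.5 and -3.08 at E11.5, 3.20-fold higher.

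Endothelial genes were lower at E13.5, but not all of them. Of 23 compared, 18 were at least 2-fold lower and 1 higher, with a median of -3.22. Stab2, a scavenger receptor of liver sinusoids, had -3.54 at E13.5 and 0.93 at E11.5, 22.2-fold lower. Cldn5, a tight junction claudin of endothelium, had -4.59 at E13.5 and 0.27 at E11.5, 29.1-fold lower. Tie1, an endothelial receptor kinase, had -7.84 at E13.5 and -1.89 at E11.5, at least 18.4-fold lower.

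Against that direction, Eng, endoglin, had 1.92 at E13.5 and 0.70 at E11.5, and Egfl7 had 4.78 at E13.5 and 4.64 at E11.5. Because of such bright members the list's summed signal was 48.2 at E13.5 and 52.6 at E11.5, near to equal, while its median was far below 0. Of the leukocyte and Kupffer cell genes, 12 of 25 measured were above background on the brighter array, 3 at least 2-fold higher and 4 lower, or 1 and 3 with dim levels at their bound. Ptprc, which encodes CD45, the antigen used to remove leukocytes, was below background on both arrays. Mrc1, a mannose receptor shared by sinusoidal endothelium and macrophages, had -6.16 at E13.5 and -1.70 at E11.5, at least 21.0-fold lower.

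Red cell transcripts were detected at both stages in spite of the Ter119 gate, with the embryonic globins lower and 2 definitive globins higher at E13.5. The embryonic globin genes Hbb-y and Hbb-bh1 had -4.23 and -2.25 at E13.5 against 1.12 and 2.41 at E11.5, 40.8-fold and 25.4-fold lower, and all of these levels were above background. Hba-x, the embryonic alpha-type globin, had -7.48 at E13.5 and -0.45 at E11.5, at least 50.01-fold lower. Of the globins of definitive red cells, Hba-a1 had 4.12 at E13.5 and 2.51 at E11.5, 3.05-fold higher, and Hbb-bt had 4.59 at E13.5 and 2.90 at E11.5, 3.24-fold higher. Over the whole list of 20 erythroid genes compared, 10 were at least 2-fold higher and 4 lower, and the summed signal was 74.0 at E13.5 and 44.9 at E11.5. At E14.5 Hbb-y had a level of 0.80 and Hbb-bh1 of -2.85, so Hbb-y was again near its E11.5 level there and Hbb-bh1 was not. Globin copies are alike in sequence, and their probes may share signal.

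**Figure D3:**
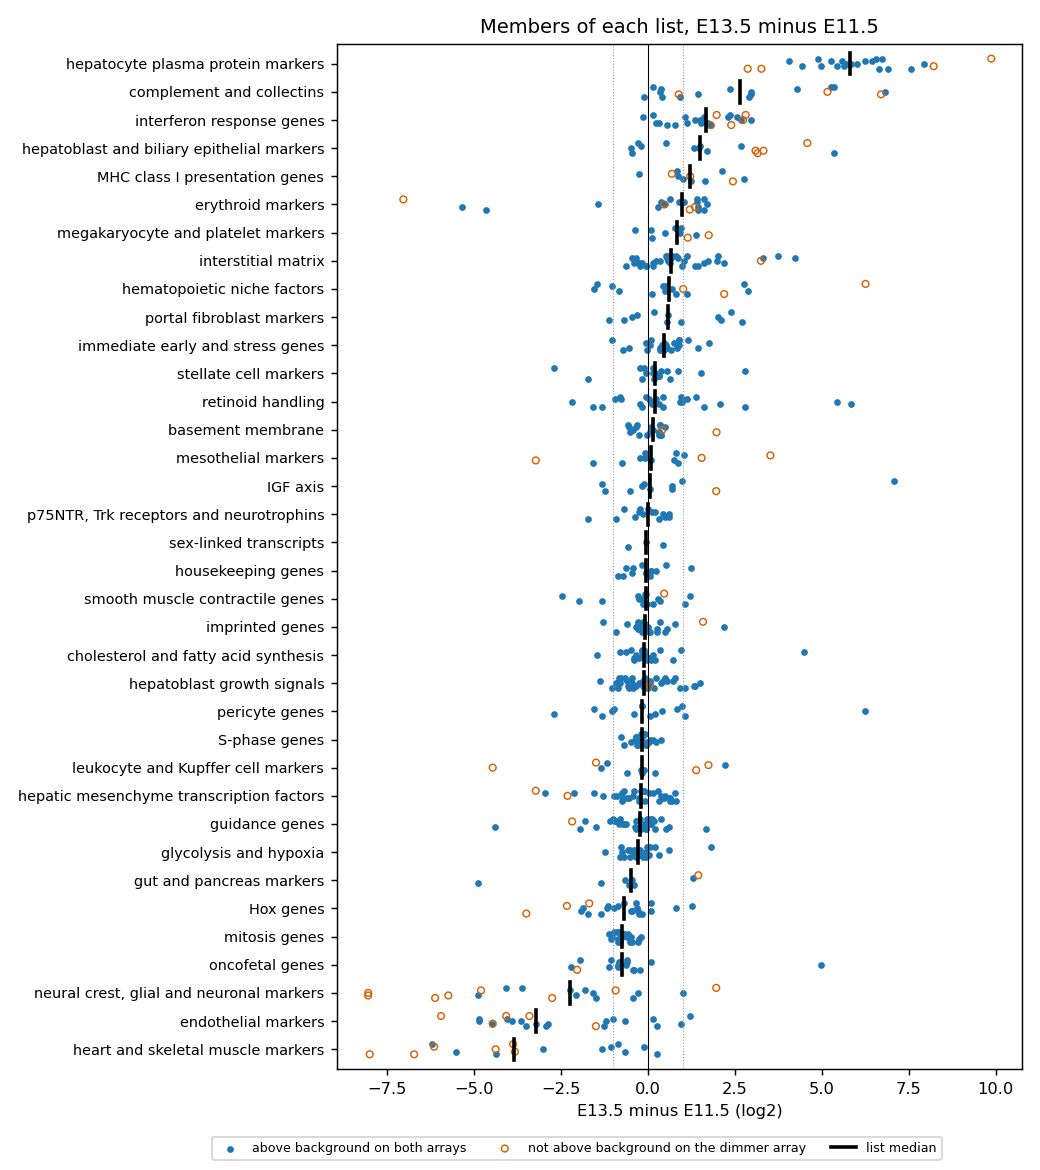
Differences E13.5 minus E11.5 (log2, x axis) of the compared members of 36 lists (y axis, sorted by median). Filled points were above background on both arrays, open points only on the brighter one, black bars are list medians and dotted lines mark 2-fold; the plasma protein list lies at a median of 5.82 and the heart and skeletal muscle list at -3.85.

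Most stellate cell genes differed by less than 2-fold. Of 20 markers compared, 16 lay within 2-fold, 2 were higher and 2 lower, and the median was 0.21. Lhx2, a LIM homeobox factor needed to keep stellate cells quiescent in mice, had 4.92 at E13.5 and 4.78 at E11.5, and Des, desmin, had -0.13 at E13.5 and -0.41 at E11.5. Reln, reelin, had -0.66 at E13.5 and -0.60 at E11.5, and Tcf21, a factor of visceral mesenchyme, had 0.60 at E13.5 and -0.04 at E11.5. The 4 exceptions were Lrat and Adamts13 on the higher side and Ngfr and Rgs5 on the lower. Rgs5, a regulator of G protein signalling in pericytes, had -1.61 at E13.5 and 1.08 at E11.5, 6.45-fold lower. Adamts13, the protease that cuts von Willebrand factor, had 0.03 at E13.5 and -1.48 at E11.5, 2.85-fold higher.

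Lrat, the enzyme that esterifies retinol for storage, had -1.89 at E13.5 and -4.68 at E11.5, 6.92-fold higher. Over the later arrays it had 0.61 at E14.5, 2.16 at E17.5, -0.13 at P1 and 5.12 in adult HSC. The retinoid genes as a list went both ways, 7 of 28 at least 2-fold higher and 3 lower. Rbp4 and Ttr, the retinol carriers of plasma, were 43.1-fold and 57.0-fold higher, and Ttr is also in the plasma protein list, as is Rbp4. Aldh1a2, which makes retinoic acid in mesothelium and mesenchyme, had -1.06 at E13.5 and 0.53 at E11.5, 3.00-fold lower, whereas Aldh1a3, another such enzyme, had -2.45 at E13.5 and -4.53 at E11.5, 4.21-fold higher. Cyp26b1, which breaks retinoic acid down, had -1.23 at E13.5 and 0.94 at E11.5, 4.50-fold lower.

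Genes of the interstitial matrix that differed were higher at E13.5. Of 36 compared, 13 were at least 2-fold higher and 0 lower, with a median of 0.65. Ogn, the proteoglycan osteoglycin, had 0.38 at E13.5 and -3.85 at E11.5, 18.8-fold higher. Tnxb, tenascin X, had 0.29 at E13.5 and -3.46 at E11.5, 13.46-fold higher, and Fbln5, fibulin 5 of elastic fibres, had 2.08 at E13.5 and -1.24 at E11.5, 9.97-fold higher, while the difference of its other probe was 0.75. Dcn, decorin, had 6.22 at E13.5 and 4.04 at E11.5, 4.53-fold higher.

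The fibrillar collagen genes were not among them. Col1a1 had 4.26 at E13.5 and 4.32 at E11.5, and Col3a1 had 5.59 at E13.5 and 5.25 at E11.5. Basement membrane genes mostly lay within 2-fold too, with 1 of 22 at least 2-fold higher (0 with dim levels at their bound), 0 lower and a median of 0.14. Among portal fibroblast markers 4 of 12 were at least 4-fold higher: Thy1 had 0.29 at E13.5 and -2.41 at E11.5, Gas6 had 1.15 at E13.5 and -1.24 at E11.5, and Entpd2 and Eln were 4.28-fold and 4.07-fold higher. Cd34 had -0.30 at E13.5 and 0.82 at E11.5, 2.17-fold lower, with -2.54 as the difference of its other probe. Ogn, Tnxb, Dcn and Fbln5 were higher still at P1, with 3.59, 4.54, 7.37 and 4.74.

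Of 16 smooth muscle genes compared, 2 (12.5%) were at least 2-fold higher, 3 (18.8%) lower and 11 within 2-fold. Over all genes the shares were 7.89% higher and 7.11% lower. Acta2, the actin of activated stellate cells, had 3.847 at E13.5 and 4.001 at E11.5. Cnn1, calponin, had -1.53 at E13.5 and 0.96 at E11.5, 5.59-fold lower, and Tagln, transgelin, had 3.89 at E13.5 and 5.22 at E11.5, 2.51-fold lower. On the higher side, Mylk, myosin light chain kinase, had 0.32 at E13.5 and -0.89 at E11.5, 2.32-fold higher, and the integrin gene Itga8 had 3.28 at E13.5 and 2.21 at E11.5, 2.09-fold higher. Of 15 pericyte genes, 2 (13.3%) were at least 2-fold higher and 4 (26.7%) lower. Vtn, vitronectin, was the highest of these at 76.0-fold, and it is also a plasma protein of the liver and a member of that list.

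Interferon response genes were higher at E13.5 as a group. Interferons act through STAT factors and IRF9 on a short DNA element, the interferon-stimulated response element, in front of antiviral genes. Of 24 such genes compared, 18 were at least 2-fold higher (15 with dim levels at their bound) and 0 lower, with a median of 1.67 (1.42 at the bound). The share of all genes at least 2-fold higher was 7.89%. To show that element in genes of the list, the promoters of the 3 compared members with the highest differences among those that hold its core were taken from the RefSeq table (GRCm38.p6), from 250 bases before to 50 after the gene start. Capitals mark each GAAA followed by any 2 bases and a second GAAA, on either strand, with overlapping matches merged. Oas1a lies at chr5:120907476-120907775 on the minus strand, Ifit3 at chr19:34583279-34583578 on the plus strand and Isg15 at chr4:156200769-156201068 on the minus strand.
Oas1a: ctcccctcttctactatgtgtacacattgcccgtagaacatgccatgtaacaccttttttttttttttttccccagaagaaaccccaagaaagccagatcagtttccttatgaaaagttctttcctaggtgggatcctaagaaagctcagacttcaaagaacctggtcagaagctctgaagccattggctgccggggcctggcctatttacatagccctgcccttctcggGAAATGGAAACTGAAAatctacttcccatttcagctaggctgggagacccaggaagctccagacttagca
Ifit3: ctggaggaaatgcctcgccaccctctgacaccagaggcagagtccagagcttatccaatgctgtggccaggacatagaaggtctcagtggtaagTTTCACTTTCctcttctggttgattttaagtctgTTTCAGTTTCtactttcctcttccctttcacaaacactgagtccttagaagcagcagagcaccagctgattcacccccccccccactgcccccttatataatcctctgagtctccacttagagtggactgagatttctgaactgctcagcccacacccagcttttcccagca
Isg15: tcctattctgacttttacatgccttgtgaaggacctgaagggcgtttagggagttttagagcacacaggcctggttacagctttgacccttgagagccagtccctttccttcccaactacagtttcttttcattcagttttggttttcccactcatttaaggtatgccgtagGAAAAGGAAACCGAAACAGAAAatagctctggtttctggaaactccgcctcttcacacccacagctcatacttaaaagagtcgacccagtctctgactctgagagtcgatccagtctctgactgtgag

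Oas1a, a sensor of double-stranded RNA, had -1.60 at E13.5 and -4.56 at E11.5, 7.81-fold higher, while the difference of its other probe was 2.32. Ifit3, an antiviral repeat protein, had -2.48 at E13.5 and -5.17 at E11.5, 6.42-fold higher. Isg15, a ubiquitin-like modifier, had 0.53 at E13.5 and -2.03 at E11.5, 5.91-fold higher. Their promoters hold 2, 2 and 3 matches. Of the 21 listed interferon genes with a promoter in the table, 13 hold the core, which is 61.9%, against 3.99% of all 27025 genes with a promoter there. The list was made of known interferon response genes, so this share does not bear on the difference between the stages.

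Among compared members with the core, 11 of 13 were at least 2-fold higher (median 1.80), and among those with a promoter and no core, 3 of 7 (median 0.77). With dim levels at their bound these were 9 of 13 (median 1.61) and 2 of 7 (median 0.33). Outside the interferon and MHC class I lists, 373 compared genes hold the core, and 11.8% of them were at least 2-fold higher, against 7.53% of all compared genes with a promoter. With dim levels at their bound these shares were 9.65% and 5.99%. The shares at least 2-fold lower were 5.36% and 6.69%. The median difference of the 373 genes was 0.06. Whether the core has a part in the differences was not tested. A match is a string of letters and not a shown binding site.

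Other antiviral genes were as far apart but dim at E11.5. Usp18, which removes ISG15 from proteins, had -2.76 at E13.5 and -5.57 at E11.5, at least 6.05-fold higher. Xaf1 was at least 6.64-fold higher by the probe used, with its own dim level as the bound. The difference of its other probe was 1.0. The factors that carry the signal differed less, with Stat2 at 0.76 at E13.5 and 0.53 at E11.5 and Irf9 at 0.78 at E13.5 and 0.02 at E11.5. Isg15 had 3.36 at E14.5, 3.86 at E17.5, 2.83 at P1 and 5.63 in adult HSC. Values of leukocyte genes beside this result are those given above, with Ptprc below background on both arrays, and their part in it was not tested.

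Genes of antigen presentation by MHC class I were higher too, 7 of 11 by at least 2-fold (5 with dim levels at their bound) and 0 lower, with a median of 1.21 (0.85 at the bound). H2-K1, a class I heavy chain, had 0.66 at E13.5 and -2.09 at E11.5, 6.75-fold higher. B2m, the light chain, had 3.72 at E13.5 and 2.49 at E11.5, 2.35-fold higher. Tap2, a peptide transporter, had -2.26 at E13.5 and -3.89 at E11.5, 3.09-fold higher. B2m is also in the housekeeping list, whose median over 14 genes was -0.06. Class I heavy chain genes are alike in sequence, and H2-Q4 had 4.16 at E13.5 and 4.40 at E11.5.

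Complement genes were higher and the collectin markers of stellate cells were not. Of 18 complement and collectin genes, 11 were at least 2-fold higher and 0 lower. Cfb, factor B, had 1.69 at E13.5 and -5.12 at E11.5, 112.6-fold higher, and C3 had 3.92 at E13.5 and -1.36 at E11.5, 38.7-fold higher, while the difference of its other probe was 3.89. Hc, complement C5, was at least 74.5-fold higher. Colec10 and Colec11, collectins that mark stellate cells, had 5.32 and 4.85 at E13.5 against 4.95 and 4.72 at E11.5, within 2-fold.

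Other strings searched on both strands of the same promoters were AGGTCA repeated after any base, CAAAGTCCA, CACGTG and the MEF2 motif. Each was found in at most 2 genes of any of the plasma protein, interferon, MHC class I, muscle and endothelial lists. Over all genes with a promoter the shares were 0.0481%, 0.555%, 8.09% and 0.636%, in the same order. With 11 to 21 genes a list, such counts cannot tell a list from all genes. TTTGAA was found in 14.3% of the plasma protein genes and 20.2% of all genes.

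Transcription factors of liver mesenchyme and positional genes mostly lay within 2-fold or were lower. Of 37 mesenchymal factors, 6 were at least 2-fold lower and 0 higher, with a median of -0.20, or 0.01 with the arrays centred on their medians. Tbx18, a T-box factor of the septum transversum and epicardium, had -6.41 at E13.5 and -3.18 at E11.5, at least 7.53-fold lower. Nkx2-3, a homeobox factor of gut and spleen mesenchyme, had -4.99 at E13.5 and -2.04 at E11.5, 7.75-fold lower, and Tbx5, a factor of heart and forelimb, had -3.14 at E13.5 and -1.02 at E11.5, 4.35-fold lower. Gata4 had 3.68 at E13.5 and 3.93 at E11.5, and Hand2 had 3.24 at E13.5 and 2.92 at E11.5, so these visceral mesenchyme factors lay within 2-fold.

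Of 23 Hox genes compared, 9 were at least 2-fold lower and 1 higher, with a median of -0.70. Hoxd3 was at least 9.18-fold lower, with -6.39 at E13.5 and -2.89 at E11.5, and Hoxd4, its neighbour in the cluster, was 3.80-fold lower. Hoxc6, the exception, had -0.46 at E13.5 and -1.72 at E11.5. Mesothelial genes showed no shared direction, with 3 of 13 at least 2-fold higher and 2 lower. Wt1, a factor of mesothelium, had 3.48 at E13.5 and 2.61 at E11.5, and Msln, mesothelin, had -4.10 at E13.5 and -7.62 at E11.5, at least 2.40-fold higher.

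Cell cycle genes differed by small amounts, and some oncofetal genes by more. All 24 mitosis genes compared were lower at E13.5, 3 of them by at least 2-fold, with a median of -0.74, and with the arrays centred on their medians 23 were lower, the exception being Ccnb2 at 0.01. Ccnb1, cyclin B1, had 3.13 at E13.5 and 4.19 at E11.5, 2.09-fold lower, and Aurka, a mitotic kinase, had 2.57 at E13.5 and 3.47 at E11.5. None of 23 S-phase genes was 2-fold apart, with a median of -0.18, or 0.02 with the arrays centred on their medians. Of 16 oncofetal genes, 5 (31.25%) were at least 2-fold lower and 1 (6.25%), Afp, higher. Over all genes the shares were 7.11% lower and 7.89% higher. Lin28b, which blocks maturation of let-7 microRNAs, had -0.84 at E13.5 and 0.27 at E11.5, 2.16-fold lower, while the difference of its other probe was -2.10. Trim71 had -2.08 at E13.5 and -0.11 at E11.5, 3.91-fold lower. Arid3b was 4.61-fold lower by the probe used, but its 3 probes did not share a direction.

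Most secreted signals to hepatoblasts lay within 2-fold. Of 41 growth signals compared, 4 (9.76%) were at least 2-fold higher and 2 (4.88%) lower, near the 7.89% and 7.11% of all genes. Rspo3, an enhancer of Wnt signalling, had 3.94 at E13.5 and 2.58 at E11.5, 2.57-fold higher, and Tgfb2 had 2.19 at E13.5 and 3.58 at E11.5, 2.62-fold lower. Hgf, hepatocyte growth factor, had 0.12 at E13.5 and -0.04 at E11.5, and Gdf2, BMP9, had 4.90 at E13.5 and 4.36 at E11.5. Of 16 niche factors, 6 were at least 2-fold higher, or 4 with dim levels at their bound, and 3 lower. The chemokines Cxcl1 and Ccl2 had -1.37 and -0.13 at E13.5 against -4.24 and -2.88 at E11.5, 7.31-fold and 6.75-fold higher. Cxcl12, which holds blood stem cells in their niche, had 6.38 at E13.5 and 5.59 at E11.5, and Kitl, stem cell factor, had -0.97 at E13.5 and -0.13 at E11.5. Of 26 immediate early and stress genes, which respond to tissue dissociation, 3 were at least 2-fold higher and 1 lower, with a median of 0.45.

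Genes of gut and pancreas showed no shared direction. Of 19 measured, 8 were above background on the brighter array, 2 of them at least 2-fold higher (1 with dim levels at their bound) and 2 lower, with a median of -0.50. Gcg, proglucagon, had -4.90 at E13.5 and -0.03 at E11.5, 29.3-fold lower, and Nkx6-1, a homeobox factor of pancreas, was 2.55-fold lower. Ihh, Indian hedgehog, had -2.45 at E13.5 and -3.75 at E11.5, 2.46-fold higher, and Vil1, villin, had -4.36 at E13.5 and -5.81, below background, at E11.5. Insm1, a zinc finger factor of endocrine and neuronal cells outside that list, had -5.95 at E13.5 and -0.98 at E11.5, 31.2-fold lower. Pdx1 and Cdx2, defining factors of pancreas and intestine, were below background on both arrays. The part of neighbouring tissue in the sorted cells was not tested.

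The step between these stages was of like size to the next and smaller than the one after. Between E13.5 and E11.5, 800 genes lay at least 4-fold apart, 461 higher and 339 lower. Between E14.5 and E13.5, 742 of 14510 genes (5.11%) did, between E17.5 and E14.5 1041 of 14501 (7.18%), and between P1 and E17.5, which were on different slides, 742 of 14816 (5.01%). Neighbouring steps share an array, so their counts are not independent.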

How the data were processed

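Gene expression was measured on 1-colour Agilent mouse arrays, and per the file headers Feature Extraction 11.5.1.1 made the deposited intensity values, which are background-subtracted and not normalized between arrays. The log2 values in the authors' deposited series table follow these signals divided by the array's 75th percentile and are not centred per gene. Minus that table, the levels used here were offset by -0.106 at E13.5 and -0.103 at E11.5, and 100% of probes on both arrays matched within 0.02 after that. The authors' column medians were -3.93 at E13.5 and -3.73 at E11.5. Per the file headers the other columns used are scanner flags. Both arrays share a slide and scan, as do 4 fetal arrays.

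Spots marked as outliers were dropped, spots of a probe were averaged, and the log2 75th percentile of the array was subtracted. A RefSeq table gave gene names for 67.4% of 39429 probes by their accessions, and the probe with the highest mean level over 8 arrays stood for a gene. Genes well above background on the brighter array were compared. Counts and medians use a dim side at its own level. For folds given as "at least", and where a value is said to be at the bound, it was set at the higher of that level and the lowest level well above background on its array. No test was run, since each stage has 1 array, and counts use thresholds of 4-fold and, for lists, 2-fold. The steps were checked on a simulated pair of arrays.

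The comparison and the 36 lists were chosen with earlier results of these data known. Genes were named by a rule: the 15 highest and 15 lowest differences above background on both arrays, the 10 brightest in each direction above background on 1 array, the 5 members a list that differed most, and 10 fixed genes. Of 203 genes so chosen, those that tell most are given, and some are not reported here. Others (Tnni1, Tnnt3, Krt19, Sox9, Igf2, Ntrk3, Tubb3, S100b, Stmn2, Eng, Egfl7, Ptprc, Col3a1, Stat2, Irf9, H2-Q4, Colec10, Colec11, Gata4, Hand2, Wt1, Hoxc6, Hgf, Gdf2, Cxcl12, Kitl, Pdx1 and Cdx2) were chosen after their values were seen. Listed genes without such a probe were left out. Alternatives were normexp background correction with an offset of 50 (limma 3.58.1 in R 4.3.3, on median spot brightness in place of the planned mean, without spots of uneven local background), centring on the median, quantile normalization, loess, the authors' table, the mean of probes, other filters on dim genes and a floor for dim levels. A bright speck gave 19 spots of uneven background on the E13.5 array and 7 spots were so marked on the E11.5 array; 0 of the 203 genes use such a probe.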

Additional observations from a re-analysis of the deposited data

How the results depend on the processing

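Against 461 genes at least 4-fold higher, 339 at least 4-fold lower, 245 of 695 list members at least 2-fold apart and a median difference of -0.01, normexp gave 96, 49 and 136, with a median of -0.08; its offset shrinks differences of dim genes. Genes above background on both arrays alone gave 172 higher and 139 lower, no filter gave 573 lower, and dim levels at their bound gave 306 higher. Centring on the array median shifted the median of all genes to 0.20. Under the other alternatives these counts stayed within 1.5 times. The split of 461 higher and 339 lower became 564 and 276 under quantile normalization, 564 and 270 under loess, and 540 and 288 under median centring. Of 161 named genes at least 2-fold apart, the number at least 2-fold apart on the same side was 161 with the authors' table, 159 with quantile normalization or loess, 155 with median centring and 106 of 150 with normexp. The list medians nearest to 0 over all alternatives were 4.26 for plasma proteins, 1.03 for complement, 0.71 for interferon, 0.43 for hepatoblast, -1.23 for endothelial, -1.18 for muscle and -1.17 for neural crest genes. Cldn15 turned to -0.18 with normexp. Igfals, Thpo and Fcgr1, dim at E11.5, turned to -0.35, -0.11 and -0.34 with dim levels at their bound, and no fold is given for them. No paired analysis was possible because each stage has 1 array. No replicate could be left out for the same reason, and signal near background limits the dim genes.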

Other observations

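Among probes without a gene name, large differences lay more often on the lower side, unlike among the named genes. Of 5648 unnamed probes above background on the brighter array, 79 were at least 4-fold higher at E13.5 and 209 at least 4-fold lower. These are counts of probes, whereas the named counts are of genes, each by the probe with the highest mean level. The balance is therefore not set like against like. Most genes at least 4-fold apart belong to no list used here: 391 of the 461 higher and 287 of the 339 lower. Among these, Robo4, a receptor of endothelium, had -5.07 at E13.5 and 0.70 at E11.5, 54.8-fold lower, and Gpr17 had -7.59 at E13.5 and -0.71 at E11.5, at least 41.6-fold lower. Vgll2, a cofactor of skeletal muscle, was at least 39.3-fold lower, and Esm1, an endothelial proteoglycan, at least 38.8-fold lower. On the higher side Lect2, a secreted liver protein, had 1.04 at E13.5 and -6.02 at E11.5, at least 84.4-fold higher, and Slc27a2, a fatty acid transporter, was at least 72.3-fold higher.

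Levels of several genes that were higher at E13.5 were also high outside the fetal liver. Thy1 had 5.40 in MEF and 1.64 in MSC, and Ogn had 4.53 in MEF and 1.60 in MSC. Actc1, lower at E13.5, had 4.18 in MEF.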
